A study of Mus musculus with 45 samples.

Results

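The early expression response of mouse embryonic cortical cells was measured between the addition of uridine (0 h) and 2 h later. The libraries were chosen by their labels as all 0 h and 2 h libraries of the time course, 18 of the 45 in the series, which form 9 pairs from the same pool of cells. Of the 53491 genes in each table, 12454 had over 500 thymine positions covered by reads in all 18 libraries and were tested. A gene was counted as risen or fallen when its change over the 9 pairs passed limma's test (adjusted p under 0.05, Benjamini-Hochberg over all 12454 genes) and all 9 pairs moved the same way. Where pools were left out, only the remaining pairs had to move the same way. Such counts therefore follow a looser rule on direction.

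RNA turnover was followed by SLAM-seq, in which cells take up 4-thiouridine (4sU), a uridine analogue that is read as a T-to-C conversion, and an excess of unlabelled uridine then chases the label out. Wild-type cortices from 3 stages (E11.5, then E14.5, then E16.5) were dissociated, with 3 pools per stage. An E11.5 pool came from 7 embryos and an E14.5 or E16.5 pool from 2 embryos, and every pool was plated over several wells. All wells, those of 0 h included, received 100 uM 4sU for 20 h in a progenitor medium with N2, B27 without vitamin A, N-acetyl-cysteine and the growth factor bFGF, with the last change of this medium 1 h before the chase. Uridine was then added to 5 mM, and 1 well of each pool was lysed at each time, so the 0 h cells were 1 h and the 2 h cells 3 h past their last fresh medium. No 2 h library without uridine was analysed here. The presence of uridine, the end of labelling and the longer time since fresh medium therefore cannot be told apart in any value below. The cultures were dissociated cortex and not a sorted cell type, and in such bulk RNA fewer cells of a type and less RNA per cell cannot be told apart.

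Cells answer a change of medium, growth factors or nutrients within minutes to hours. Immediate early genes such as Fos, Egr1 and Arc are transcribed at once through ERK and serum response factor, make very short-lived RNAs and shut off again. The unfolded protein response raises chaperones such as Hspa5 when proteins misfold in the endoplasmic reticulum, and the integrated stress response raises ATF4 targets such as Trib3 when amino acids or redox balance are disturbed. Since short-lived RNAs track their transcription closely, such genes can change in level within the first hours of a chase.

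Reads in genes numbered between 19.1 and 43.0 (times 1e6) per library, and at E11.5 the 2 h library was deeper than its 0 h partner in all 3 pairs. Radial glia markers summed to between 12400 and 13600 CPM at E11.5 and between 3360 and 3590 CPM at E16.5, while neuron markers were at 4100 to 4810 CPM at E11.5 and 10200 to 10900 CPM at E16.5. Nkx2-1, a ventral forebrain marker, was at 0 in all 6 E11.5 libraries. Gm42418, a locus that overlaps ribosomal RNA sequence, took 1.48% and 2.05% of the 2 h libraries of E14.5 pools A and B and at most 0.948% of any other of the 18 libraries. Among the later libraries, used below for levels over time, it took 2.97% to 6.76% of those at E11.5 and 12 h and 1.81% of E14.5 pool C at 8 h. Without those 2 pools 802 genes rose and 1059 fell, and with CPM recomputed without Gm42418 the counts were 792 and 1257.

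At 2 h, 717 genes had risen (5.76% of those tested) and 1284 had fallen (10.3%). The changes were small. The median change was 0.173 on the log2 scale among the genes that rose and -0.226 among those that fell, against -0.016 over all tested genes, and no gene's mean change passed 1 on this scale. Beyond 0.5 there were 8 genes that rose and 44 that fell. Just inside the threshold lay Lsm6 (0.08, adjusted p = 0.0479) and Gtf3c6 (-0.07, adjusted p = 0.0471), and just outside it on the lower side was Celf6 (-0.13, adjusted p = 0.0509). The split between directions depended on how libraries were scaled. Risen genes made up 35.8% of the changed genes with the deposited CPM, but 52.2% with TMM scaling, which shifts the median of all genes to 0.006 and gave 1059 genes up and 968 down. All 717 risen genes were among those 1059, and all 968 TMM-fallen genes were among the 1284. TMM scaling moves all genes of a library by the same factor, so this nesting was largely set in advance. No gene took the opposite direction in any setting tried, which only rescaling or recounting reads could have shown.

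The largest rise was that of Rsrp1, an arginine- and serine-rich protein gene (chr4:134923592-134927671, GRCm38). Its level went from 27.3, 31.8 and 50.2 CPM (lowest, median and highest of 9 libraries) at 0 h to 45.9, 60.7 and 76.8 CPM at 2 h. The groups overlapped, but each of the 9 pairs rose, by 0.49 to 1.1, with a mean log2 change of 0.77 (SE 0.04, limma adjusted p = 1.06e-08). By stage the mean changes were 0.69, 1.03 and 0.58.

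Ogt, the only enzyme that adds O-GlcNAc to nuclear and cytosolic proteins (chrX:101640060-101684351), went from 161, 206 and 267 CPM to 235, 289 and 417 CPM (log2 change 0.51, SE 0.03, limma adjusted p = 2.73e-08). It was the most abundant of the 8 largest rises. Chka, the choline kinase that opens phosphatidylcholine synthesis (chr19:3851773-3894369), went from 31.1, 34.7 and 44.9 CPM to 46.4, 56.0 and 64.4 CPM, without overlap between the groups (0.55, SE 0.03). Phf13, a reader of methylated histone H3 (chr4:151989633-151996258), went from 21.0, 29.2 and 36.5 CPM to 32.1, 46.4 and 52.3 CPM (0.59, SE 0.03). The remaining large rises were 2810459M11Rik (0.54), Fam76b (0.51), the orphan receptor gene Gpr19 (0.50) and the ETS factor gene Elf1 (0.50), each in 9 of 9 pairs. Gpr19 shares its strand with the annotated gene Gm44366, so its reads are not certain to be its own.

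Among the 8 largest falls, 5 genes encode DNA-binding transcription regulators or zinc finger proteins. Klf11, a Krueppel-like repressor (chr12:24651274-24662789), went from 11.3, 15.0 and 24.5 CPM to 6.45, 9.49 and 15.8 CPM (log2 change -0.74, SE 0.04, limma adjusted p = 2.13e-08). Zfp518a, a zinc finger gene (chr19:40894705-40917947), went from 19.3, 30.9 and 33 CPM to 12.0, 15.9 and 21.9 CPM (-0.71, SE 0.05). Nfatc1, a calcium-responsive transcription factor, went from 6.32, 26.2 and 52.1 CPM to 4.65, 15.5 and 29.8 CPM (-0.67, SE 0.04). The 0 h and 2 h ranges of these genes overlapped, while every pair fell.

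The zinc finger genes Zfp941 (-0.79, SE 0.06) and Zfhx3 (-0.77, SE 0.08) had medians of 6.52 and 7.45 CPM at 0 h, and both overlap another annotated gene on their strand. Map10, a microtubule-associated protein gene, fell by 0.75, Frat1, a GSK3-binding positive regulator of Wnt signalling, by 0.71 and Nhlrc3 by 0.68 on the log2 scale. None of the 16 largest changes passed the test of a difference between stages (limma adjusted p from 0.108 to 0.979).

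**Figure D1:**
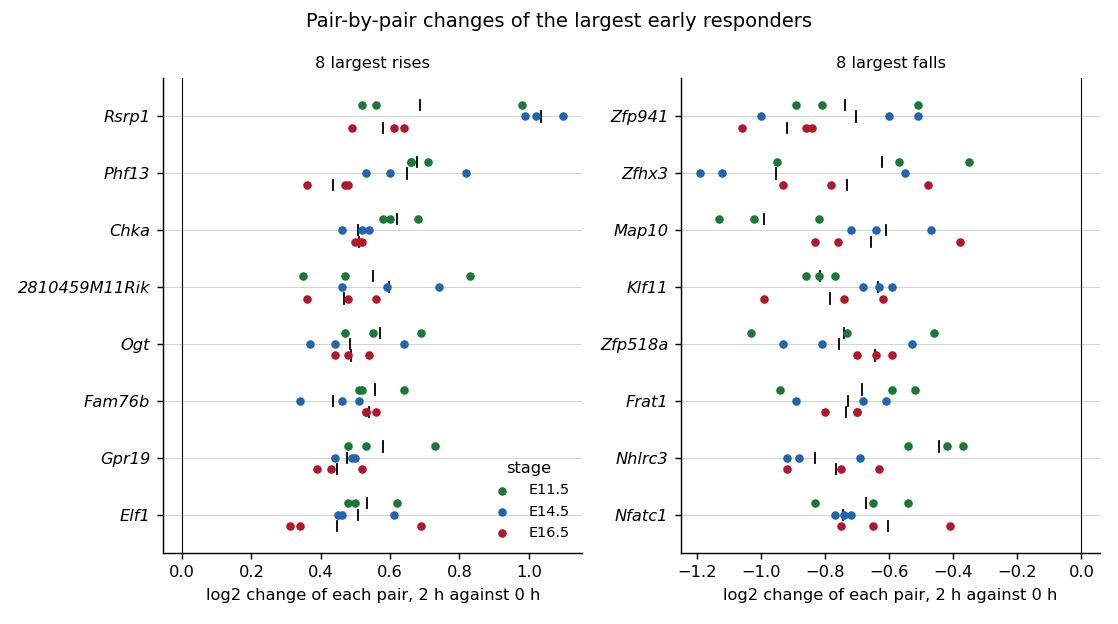
Log2 change of each of 9 pairs (points, 3 per stage, coloured by stage) and the stage means (black ticks) for the 8 largest rises (left) and falls (right). Every point of a gene lies on the same side of 0, from 0.49 to 1.1 for Rsrp1 and from -1.06 to -0.51 for Zfp941.

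Genes named as zinc finger genes were 6.14% of those that rose and 4.28% of those that fell, against 2.95% of all tested, a difference given without a test. In a list of 34 tested KRAB-type repressors, 7 rose and 6 fell (median -0.01), where 5.76% of all tested genes rose and 10.3% fell. Zfp189 (0.45), Zfp426 (0.37) and Zfp354c (0.32) were among the first and Zfp619 (-0.47) among the second. Protein-coding genes were 94.6% of both directions and 86.4% of all tested, long noncoding RNAs 0.976% and 2.02% against 1.75%, and pseudogenes 3.35% and 2.34% against 10.2%.

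In the unfolded protein response list the members that moved mostly fell. Of 15 tested, 6 fell and 1 rose, with a list median of -0.11 beside -0.02 for all tested genes, where 10.3% fell. Dnajb9, an ER co-chaperone, went from 12.0, 19.3 and 21.9 CPM to 8.29, 12.8 and 18 CPM (-0.44, SE 0.05, limma adjusted p = 3.54e-06). Xbp1, the transcription factor activated by IRE1, went from 51.1, 77.4 and 88.8 CPM to 45.1, 61.8 and 65.9 CPM (-0.32, SE 0.03). Hspa5, the main ER chaperone BiP, went from 336, 492 and 567 CPM to 285, 377 and 501 CPM (-0.25, SE 0.02). All 3 fell at each stage. Sdf2l1, an ER chaperone cofactor, fell by 0.32, Herpud1, of ER-associated degradation, by 0.24 and the cytosolic chaperone gene Hsph1 by 0.10. Dnajb1, a heat shock co-chaperone of the cytosol, rose by 0.11 over the 9 pairs but passed at no single stage. With Hsph1 lower, the cytosolic members went both ways. Counts for this list were also 6 and 1 with TMM scaling.

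ER stress acts on transcription through short promoter elements, and those found in this list are printed because 6 of its genes fell, with and without an element. Of its 13 members with a promoter window, 3 held the first element below. Each window is from RefSeq (GRCm38.p6), on the gene's strand, with the element in capitals. The ER stress response element was searched as CCAAT, 9 further bases and CCACG, the second form as ATTGGNCCACG, and the core of the unfolded protein response element as TGACGTG, on both strands of the 300 bases around each start site. On the opposite strand the first element reads CGTGG, 9 bases and ATTGG.
Hspa5, ER stress response element, chr2:34772020-34772048, plus strand: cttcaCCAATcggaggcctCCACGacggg
Hspa5, unfolded protein response element core, chr2:34771928-34771944, plus strand: agcaaTGACGTGagttg
Herpud1, second ER stress response element, chr8:94386372-94386392, plus strand: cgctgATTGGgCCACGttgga
Hsp90b1, ER stress response element, chr10:86705633-86705661, minus strand: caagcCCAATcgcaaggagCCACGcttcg
Hsp90b1, ER stress response element on the other strand, chr10:86705528-86705556, minus strand: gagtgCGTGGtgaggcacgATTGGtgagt
Calr, ER stress response element on the other strand, chr8:84847070-84847098, minus strand: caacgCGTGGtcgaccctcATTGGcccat

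Hspa5 and Herpud1 fell, whereas Hsp90b1 (mean log2 change -0.11, lower in 8 of 9 pairs) and the calreticulin gene Calr (-0.05) did not meet the rule. Over all 32851 promoter windows the first element was in 0.119%, the second in 0.0365% and the core in 2.01%. Among tested genes with a window, the first element was in 4 of 988 that fell (0.405%), in 0 of 570 that rose and in 0.159% of all. The second was in 0.101% of those that fell, 0 of those that rose and 0.102% of all. The core was in 3.34%, 2.11% and 3.5% in the same order, so neither was more frequent among fallen genes. The cAMP response element TGACGTCA was in 3.86% of risen, 4.15% of fallen and 3.86% of all tested genes, and the serum response element in 0.702%, 1.62% and 1.59%. The AU-rich nonamer TTATTTATT lay in an annotated 3′ UTR of 12.1% of risen, 10.5% of fallen and 10.1% of all tested genes, and the median longest 3′ UTR was 2004, 1451 and 1531 bases.

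Immediate early genes were lower at 2 h in part. Of 24 tested, 4 fell and 1 rose over the 9 pairs (median -0.14), where 10.3% of all tested genes fell and 5.76% rose. Myc, a growth-promoting transcription factor, went from 92.6, 103 and 131 CPM to 73.1, 84.9 and 104 CPM (-0.30, SE 0.03, limma adjusted p = 1.06e-06). Klf6, an injury- and growth-responsive factor, went from 180, 211 and 222 CPM to 143, 176 and 191 CPM (-0.27, SE 0.03). Egr1 fell by 0.26 and the antiproliferative gene Btg2 by 0.17, while the anti-apoptotic gene Mcl1 rose by 0.13. Of the 24 genes, 5 carried the AU-rich nonamer, namely Fos, Fosl2, Maff, Zfp36 and Srf.

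Feedback targets of FGF and ERK signalling had 4 members down and 1 up of 21 (median -0.04), and 1 down and 2 up with TMM scaling, so their direction is not set by these data. Ccnd1, the G1 cyclin, fell by 0.26, Phlda1 by 0.24 and the ERK phosphatase gene Dusp4 by 0.16, and Spred1, an inhibitor of Ras signalling, rose by 0.14. Dusp6, another ERK phosphatase, was at -0.05 (adjusted p = 0.171). In the Notch list of 12, the feedback inhibitor Nrarp (0.22), the ligand Jag1 (0.20) and the effector Hey1 (0.16) rose and none fell, while Hes1 was at -0.06 and did not pass. Beside both lists, 5.76% of all tested genes rose and 10.3% fell.

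Single targets of metal, glucocorticoid, BMP and YAP signals also fell. Slc30a1, the zinc exporter induced by zinc through MTF1, went from 24.0, 26.1 and 38.7 CPM to 15.8, 17.2 and 21.3 CPM, with no overlap (-0.64, SE 0.03, limma adjusted p = 1.06e-08). Klf9 (-0.44) and Sgk1 (-0.37), both induced by glucocorticoids, fell, as did the matricellular gene Ccn1 (-0.42) and the BMP target Id2 (-0.32). Some members of the same lists went the other way. Ajuba, of the YAP list, rose (0.36). Mt1, of the metal list, was at 0.25 and higher in 8 of 9 pairs, which did not meet the rule. In the list of 18 FOXO, glucose and glucocorticoid genes 4 fell and 1 rose (median -0.10), in that of 12 NRF2 and metal genes 2 fell and 1 rose (median 0.01), and in that of 20 integrated stress response targets 2 fell, Stc2 (-0.26) and Ppp1r15a (-0.22), with a median of -0.11. Of 9 BMP and TGF-beta targets 2 fell and of 9 YAP and SRF targets 1 rose and 1 fell. Among all tested genes 5.76% rose and 10.3% fell, and the stress response list lies near that fallen share.

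None of 28 G2 and mitosis genes rose and 8 fell (median -0.14), where 10.3% of all tested genes fell, led by Hmmr (-0.38), Dlgap5 (-0.34), Kif23 (-0.33) and Tpx2 (-0.19), all of the mitotic spindle. With TMM scaling 6 fell, with DESeq2 6 and without the pool as a block 5. Without E11.5 pool B, 16 fell, but then only the remaining pairs had to be lower. At E14.5 alone 16 of the 28 fell, where 15.8% of all tested genes fell, and 4.17% rose. E14.5 pools A and B, with high Gm42418 at 2 h, are part of these E14.5 counts. Of 28 G1/S and replication genes, 4 rose, among them the histone mRNA-binding gene Slbp (0.18), the flap endonuclease gene Fen1 (0.16) and the replication clamp gene Pcna (0.09), and 1 fell.

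Tob2, which recruits the deadenylase complex to mRNAs, went from 28.5, 38.2 and 42.3 CPM to 43.5, 50.9 and 57.2 CPM, with no overlap (0.45, SE 0.03, limma adjusted p = 2.08e-07). The splicing regulator genes Tra2a (-0.36), Srsf7 (-0.29) and Srsf10 (-0.18) fell and Ptbp2 (0.18) rose, so 4 of 21 splicing regulators fell and 1 rose. In the list of 26 decay factors, which holds Tob2, 1 rose and 2 fell, among them the deadenylase subunit gene Pan2 (-0.21). Over all tested genes 5.76% rose and 10.3% fell.

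Uridine is itself taken up and fed into pyrimidine pools. Of 26 tested genes of that pathway none rose and 2 fell, where 5.76% of all tested genes rose and 10.3% fell. These were the deaminase gene Dctd (-0.23) and Umps (-0.12), which makes UMP, and the list median was 0.01. With TMM scaling 3 rose and 2 fell. Cad, which starts pyrimidine synthesis, was at -0.03, the uridine kinase gene Uck2 at 0.04 and the nucleoside transporter gene Slc29a1 at -0.09. None of these passed over the 9 pairs. At E16.5 alone Slc29a1 fell (-0.22, limma adjusted p = 0.0251). There 3 of the 26 fell and 0 rose, where 8.28% of all tested genes fell and 4.9% rose. Of 24 ribosome biogenesis genes 2 rose and 4 fell, among them Tcof1 (-0.28) and Nolc1 (-0.16), both nucleolar, and Polr1c (0.17), a polymerase subunit gene, rose. Of 40 ribosomal protein genes only Rpl3 and Rpl10 fell, at medians of 5.77 and 9.09 CPM at 0 h, and the list median was 0.08. Both have many near-identical processed copies in the genome, so their reads may be split and these values are uncertain. Of 28 respiratory chain genes Cox8a rose (0.16) and none fell (median 0.07). Without E11.5 pool B, 6 respiratory chain genes rose, and 4 ribosomal protein genes rose and 2 fell.

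Of 24 cholesterol genes Sc5d (0.28) and Msmo1 (0.26), both late synthesis enzymes, rose and none fell (median 0.04). Among 18 radial glia markers the receptor gene Nr2e1 (0.36), Emx2 (0.13) and Fabp7 (0.12) rose and none fell, while 7 rose with TMM scaling. The largest change in this list was that of Mki67, at -0.64 and lower in 8 of 9 pairs. Sox2 was at -0.08, lower in 7 of 9 pairs, and neither met the rule. Mean changes were positive in 10 of the 18 and negative in 8 (median 0.01). The summed level of these markers was higher at 2 h in 1 of 3 pairs at E11.5, 0 of 3 at E14.5 and 3 of 3 at E16.5. Among 20 layer markers Tbr1 (0.13) and Pou3f2 (0.10) rose and Cux2 fell (-0.23), and Neurod2 was at -0.01. Without E11.5 pool B, 5 layer markers fell. The share over all tested genes was 5.76% risen and 10.3% fallen. In a list of 56 progenitor genes 1 rose and 4 fell, and in one of 57 neuron genes 3 rose and 8 fell, or 7 and 6 with TMM scaling and 6 and 8 without E11.5 pool B. Both lists came from single-cell data of other experiments.

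Of 16 p53 targets 3 rose and 3 fell, with Eda2r (0.26) and Trp53inp1 (0.21) up and Plk2 (-0.23) and Bbc3 (-0.21) down. Of 16 hypoxia and glycolysis genes Kdm3a rose (0.28), and Hk2 (-0.16) and Pdk1 (-0.12) fell. Tef, a clock output factor gene, rose by 0.33 and was the only one of 14 clock genes to pass over the 9 pairs. Of 12 proneural and intermediate progenitor genes Tbr1 rose, and Sstr2 (-0.39) and Hes6 (-0.09) fell. Of 8 nuclear long noncoding RNAs Meg3 (-0.67) and Rian (-0.15) fell. Of 6 Cajal-Retzius markers Cdkn1a rose (0.13), which the p53 list also holds. None of the tested interneuron (7), endothelial and mural (4), microglial (2), meningeal (3), erythroid (3), mitochondrial genome (4) and snoRNA host (4) genes passed over the 9 pairs. Beside these lists, 5.76% of all tested genes rose and 10.3% fell.

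**Figure D2:**
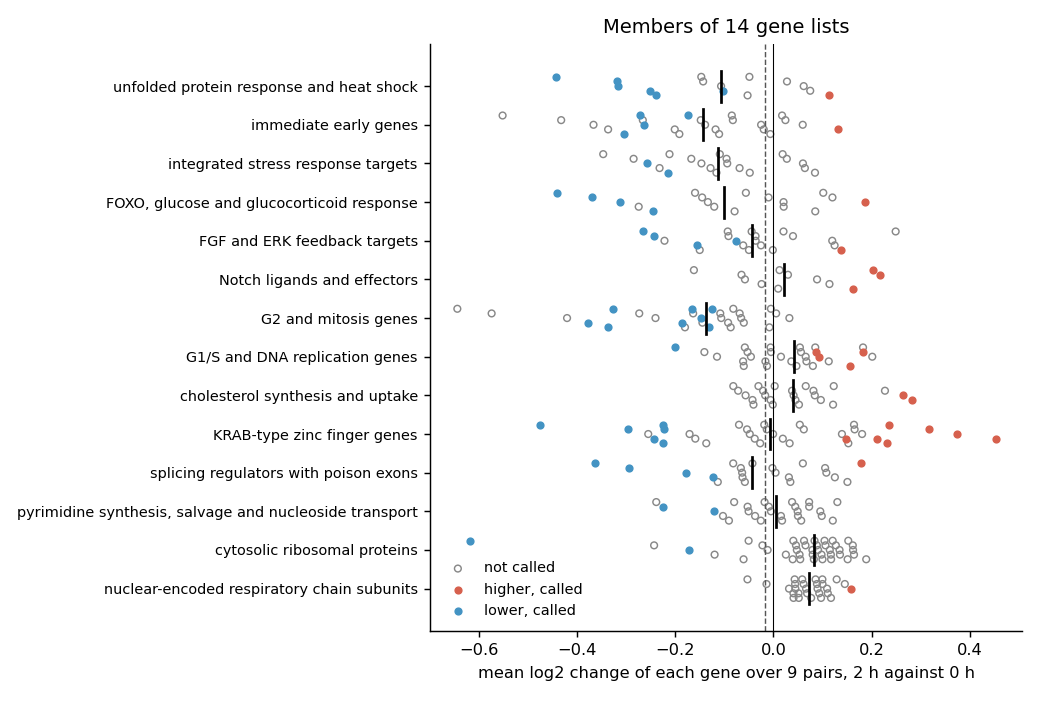
Mean log2 change over 9 pairs (horizontal) of each tested member of 14 gene lists (vertical). Filled red points rose, filled blue points fell, open points did not pass, black ticks are list medians and the dashed line is the median of all tested genes (-0.016); the unfolded protein response and mitosis lists lie mostly to its left, with medians of -0.11 and -0.14.

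The label was not used to choose genes, but it is not independent of their change in level. Gain of unlabelled RNA raises a gene's level and also lowers its conversion rate. The T-to-C conversion rate of a gene at 2 h divided by that at 0 h is the share of label kept, in which loss of labelled RNA and gain of unlabelled RNA cannot be told apart. Genes that rose kept a median of 71.3% (E11.5), 74.3% (E14.5) and 60.0% (E16.5), against 85.6%, 90.9% and 80.6% over all tested genes. Genes that fell kept 84.8%, 91.6% and 79.9%, close to all genes. Half-lives refitted from the conversion rates of 5 times had medians of 3.47, 3.63 and 2.48 h for genes that rose, 4.36, 4.62 and 3.51 h for those that fell and 4.43, 4.6 and 3.49 h for all. These are medians over genes, given without a test, and the half-lives use the same 0 h and 2 h rates. They are therefore no separate support for the rises. Single genes spread widely. Tob2, which rose, kept 41.6%, 43.6% and 36.9% of its label, and Ogt, which also rose, kept 90.6%, 91.9% and 83.9%. Among genes that fell, Slc30a1 kept 41.0%, 49.5% and 33.9%, and Myc kept 44.8%, 40.8% and 34.7%.

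The comparisons at later times share the 0 h libraries, so they are given side by side. Genes that rose had median changes of 0.17, 0.15, 0.10 and 0.06 at 2, 4, 8 and 12 h, and genes that fell had -0.23, -0.11, -0.08 and -0.15, against -0.02, -0.01, 0 and -0.05 for all tested genes. At E11.5 Slc30a1 was at 33.7 ± 5.0 CPM (SD, n = 3) at 0 h, 19.1 ± 2.0 at 2 h and 11.0 ± 1.9 at 12 h. Rsrp1 at E14.5 was at 28.9 ± 1.1 CPM at 0 h, 59.7 ± 1.0 at 2 h, 74.9 ± 4.1 at 4 h and 40.9 ± 5.6 at 8 h.

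**Figure D3:**
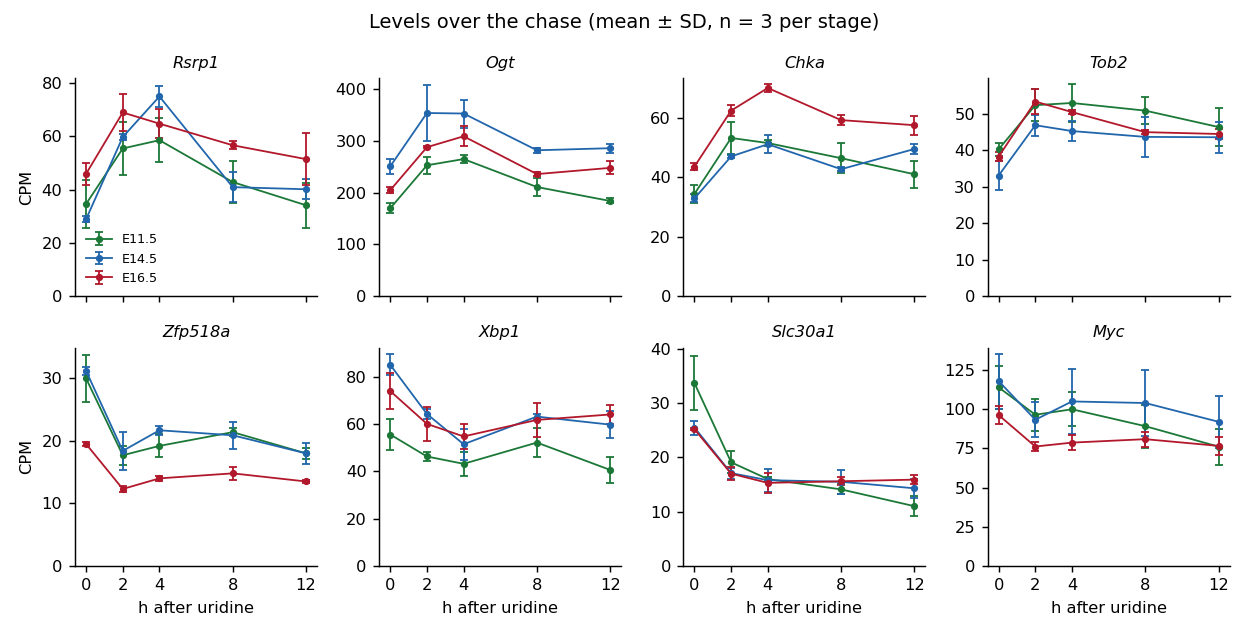
CPM (vertical, from 0) against hours after uridine (horizontal) for 8 genes chosen after their values were seen, as mean ± SD of 3 pools per stage. Rsrp1, Ogt, Chka and Tob2 are higher at 2 h than at 0 h at every stage, and Zfp518a, Xbp1, Slc30a1 and Myc are lower; Rsrp1 at E14.5 peaks at 74.9 CPM at 4 h.

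Within single stages, 671 genes rose (5.39%) and 794 fell (6.38%) at E11.5, 519 rose (4.17%) and 1965 fell (15.8%) at E14.5, and 610 rose (4.9%) and 1031 fell (8.28%) at E16.5. Of the 2001 genes that changed over the 9 pairs, 484 passed at all 3 stages. The difference between stages was itself tested, and 65 genes (0.522%) differed by limma's F-test. A gene changed at 1 stage only when it passed there, differed from the mean of the other stages and did not pass in the same direction elsewhere. That held for 27 genes at E11.5 (0.217%, 23 up and 4 down), 5 at E14.5 (0.0401%, 4 up and 1 down) and 17 at E16.5 (0.137%, 7 up and 10 down). These counts moved with single pools. The number that differed between stages was 910 without E11.5 pool C and 23 without E11.5 pool A, and it was 26 to 35 without E14.5 pool A or B or E16.5 pool A or B. Within E11.5, 606 genes changed without pool A. Within E14.5, 1163, 929 and 1556 changed without pool A, B and C. Within E16.5, 676, 644 and 322 changed without pool A, B and C, and 2536 without E11.5 pool C. Changes at E11.5 only numbered 365 without E11.5 pool C, 11 without E11.5 pool A, 18 without E11.5 pool B and 16 without E14.5 pool B or E16.5 pool A or B. Changes at E14.5 only numbered 200 without E11.5 pool C, 21 without E11.5 pool B, 2 without E14.5 pool A or B, 11 without E14.5 pool C and 3 without E16.5 pool B. Changes at E16.5 only numbered 37 without E11.5 pool C and 8, 11 and 10 without E16.5 pool A, B and C.

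Some genes changed in opposite directions at the first and last stage. Altogether 8 genes rose at E11.5 and fell at E16.5. Arc, the synaptic immediate early gene, went from 71.4, 66.4 and 56.2 CPM in the 3 pools at E11.5 to 92.6, 87.1 and 75.5 CPM, without overlap, and from 67.1, 57.6 and 60.9 CPM at E16.5 to 46.5, 39.9 and 39.5 CPM, again without overlap. Its log2 changes were 0.39 (SE 0.05, limma adjusted p = 5.68e-05), -0.09 at E14.5, which did not pass, and -0.56 (adjusted p = 6.19e-06). Lipg, an endothelial lipase gene, went from 6.53, 6.35 and 4.31 CPM to 8.79, 9.19 and 7.25 CPM at E11.5 (0.53) and, at E16.5, from between 22.3 and 26.9 CPM to between 14.8 and 17.0 CPM (-0.61). Csrnp1 (0.40 and -0.48), Sh2d3c (0.32 and -0.37) and the immediate early gene Ier2 (0.25 and -0.37) were others of the 8, chosen after their values were seen.

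At E16.5, 15 of the 24 immediate early genes fell and 1 rose, against 5 down and 3 up at E11.5 and 8 down and 1 up at E14.5. Over all tested genes 8.28% fell at E16.5, 6.38% at E11.5 and 15.8% at E14.5. Fos went from 28.3, 25.4 and 22.9 CPM to 14.9, 15.7 and 13.2 CPM at E16.5 (-0.78, SE 0.07, limma adjusted p = 1.22e-05). At E11.5 Fos was at 9.31, 9.33 and 10.4 CPM and then at 9.82, 9.13 and 9.6 CPM, which did not pass. Junb, its partner in AP-1, went from 22.3, 15.9 and 16.4 CPM to 14.9, 10.3 and 11.4 CPM at E16.5 (-0.55).

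Genes that changed at E11.5 only included Zfp703, a repressor gene, at 42.0, 48.8 and 50.8 CPM and then 64.5, 68.9 and 69.9 CPM (0.52, SE 0.06). Pdzrn4, a ubiquitin ligase gene, rose by 0.56, and Spry4, an FGF feedback inhibitor, went from 224, 211 and 227 CPM to 275, 267 and 301 CPM (0.35, SE 0.05). Pdzrn4 rose in all 9 pairs, though at E14.5 (0.12) and E16.5 (0.05) it did not pass. Txnip, a thioredoxin inhibitor gene, fell by 0.53 at E11.5, from 10.1, 9.43 and 22.3 CPM to 7.08, 5.35 and 17.5 CPM. Srxn1, which repairs oxidised peroxiredoxins, fell by 0.53, and the Notch effector Hes5 fell by 0.30, from 51.6, 58.8 and 52.6 CPM to 45.9, 40.9 and 45.4 CPM. Neither of the latter passed at a later stage. Pdzrn4 and Hes5 did not pass the F-test across stages (limma adjusted p = 0.0847 and 0.0914).

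At E14.5 only, Pdgfrb, a pericyte receptor gene, went from 5.01, 3.36 and 4.70 CPM to 9.18, 6.25 and 8.94 CPM (0.83, SE 0.09, limma adjusted p = 3.6e-05), whereas it fell at E16.5 (-0.34). Lpin1, a phosphatidate phosphatase gene, rose by 0.46 at E14.5 and fell by 0.20 at E16.5. Of the 24 cholesterol genes 8 rose at E14.5 and none fell, against 5 up at E11.5 and 1 up and 2 down at E16.5. Over all tested genes 4.17% rose at E14.5, 5.39% at E11.5 and 4.9% at E16.5, where 8.28% fell. These E14.5 changes include the 2 pools with high Gm42418, and without them no gene changed at E14.5 only. The lone remaining pool is then assumed to vary like the others.

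The reverse order, down at E11.5 and up at E16.5, was seen in 4 genes. Trib3, an ATF4-induced pseudokinase gene, went from 11.3, 17.3 and 21.3 CPM to 6.33, 8.28 and 12.9 CPM at E11.5 (-0.84, SE 0.07, limma adjusted p = 1.06e-05) and fell by 0.21 at E14.5. At E16.5 it went from 7.08, 6.75 and 6.68 CPM to 11.1, 10.3 and 9.38 CPM, without overlap (0.55, SE 0.07, adjusted p = 0.000312). The cystine transporter gene Slc7a11 (-0.72, -0.54 and 0.23) and Sesn2 (-0.44, -0.19 and 0.30) were also among the 4, and both were chosen after their values were seen. Over the list of 20, 7 fell at E11.5, 7 fell and 1 rose at E14.5, and 3 rose and 2 fell at E16.5. The share of all tested genes that fell was 6.38%, 15.8% and 8.28% in the same order, and 4.9% rose at E16.5.

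Globin RNAs also moved with stage. Hba-a1 went from 25.3, 35.6 and 58.2 CPM to 32.3, 54.7 and 80.0 CPM at E16.5 (0.47, SE 0.05), Hbb-bs rose by 0.46 and Hbb-bt by 0.50 there, and Hbb-bs fell by 0.19 at E14.5. Hba-a1, Hbb-bs and Hbb-bt each have a near-identical neighbour, so the split of reads between copies is uncertain. The 10 erythroid markers summed to between 87.7 and 208 CPM at 0 h and between 114 and 287 CPM at 2 h at E16.5, higher in 3 of 3 pairs, and were lower in 3 of 3 pairs at E14.5. At E11.5 the sum was higher still, from 1800 to 3930 CPM at 0 h. The part of red cells in the other E16.5 changes was not tested. Sums of endothelial and Cajal-Retzius markers were higher in 3 of 3 pairs at E11.5, by 0.09 to 0.17 and 0.09 to 0.19, as was that of layer neuron markers, by 0.02 to 0.08. The sum of interneuron markers was lower in 3 of 3 pairs there (-0.14 to -0.07).

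**Figure D4:**
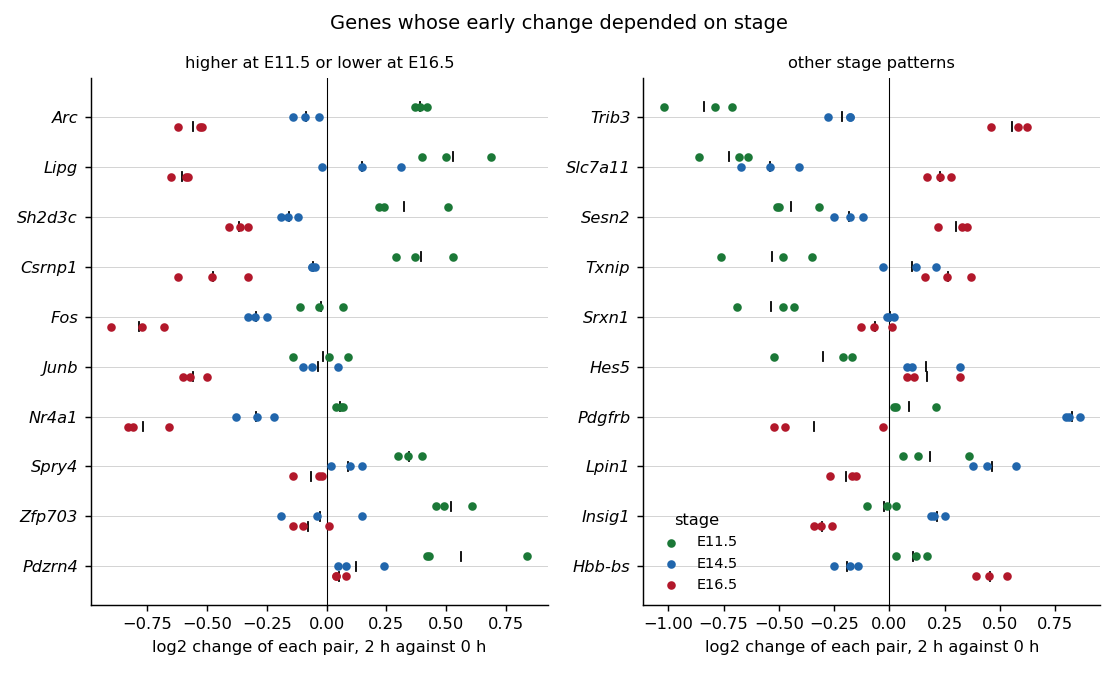
Log2 change of each pair (points, 3 per stage) and stage means (black ticks) for genes with a stage-dependent change, chosen after their values were seen. Arc is above 0 at E11.5 and below 0 at E16.5 in all pairs, and Trib3 is below 0 at E11.5 and E14.5 and above 0 at E16.5.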

How the data were processed

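Per the labels, poly-A libraries were made with a stranded kit from alkylated RNA. The authors aligned reads to mm10 with SlamDunk and summed exons of the GENCODE annotation per gene. The columns of the deposited tables used for each library were CPM (reads scaled to a common library total), the count of covered thymines and the conversion rate as a fraction. Per the file values, CPM are whole multiples of 1 read, and 100% of values came back as whole reads within 0.01 of a read. Gene positions and types were taken from GENCODE M21 by gene name (96.6% of names matched), so positions may differ from those the authors used.

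Log2(CPM + 0.5) was fitted in limma 3.58.1 (R 4.3.3) with the pool as a block and a 2 h effect per stage (18 libraries, 12 coefficients, 6 residual degrees of freedom). Fold changes are on this log2(CPM + 0.5) scale, which understates the change of low genes. The pairing comes from the wells of 1 pool. In the check, deviations of the 0 h and 2 h libraries of a pool from their group means correlated at 0.314 to 0.783, and with libraries of other pools at most at 0.122. No 2 replicates agreed within counting noise (chi-square per degree of freedom 5.95 to 71.4). Pools are separate groups of embryos and wells of a pool are not. With the pool as a block, p-values rest on how the 2 h change varied between pools of a stage. Each pool had 1 well per time, so differences between wells and libraries are part of that spread.

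Alternatives were edgeR 4.0.16 and DESeq2 1.42.0 on the whole reads, edgeR on covered thymines, other pseudocounts and filters, no block, and each pool left out. Leaving out E14.5 pools A and B and recomputing CPM without Gm42418 were added after seeing the data. Half-lives below 24 h with R2 over 0.6 were kept. Fits were tested on simulated data. Named genes were the 8 largest rises and falls, the 3 largest of each single-stage group, up to 4 called members per list (or 2 by level where none was called) and a fixed set of markers. Members, lists and tests were chosen with earlier results of these data known. Results for a few genes are not reported here.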

Additional observations from a re-analysis of the deposited data

Results flagged for a closer look

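For the named genes given here the test of the stage difference itself passed (limma F-test, adjusted over all tested genes). The adjusted p was 5.57e-06 for Arc and 9.98e-06 for Trib3, the pair with the smallest values. It was 0.000211 for Lipg, 0.000532 for Hbb-bs, 0.000709 for Pdgfrb and 0.00165 for Hba-a1. It was 0.0023 for Fos, 0.00245 for Zfp703 and 0.00245 for Lpin1. The other values were 0.0101 for Txnip, 0.0142 for Srxn1, 0.0162 for Spry4, 0.0252 for Sc5d, 0.0334 for Hbb-bt and 0.0435 for Junb. Pdzrn4 (0.0847) and Hes5 (0.0914), also described as changed at E11.5 only, did not pass this test.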

How the results depend on the processing

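Without the replicate block, 484 genes rose and 954 fell over the 9 pairs, and 220, 363 and 122 changed within the 3 stages in order. The number that differed between stages and the 3 single-stage counts were then 0. With no filter 14 genes differed between stages, 860, 1325 and 752 changed within the 3 stages, and 15, 0 and 10 at 1 stage only. Without the trend 34 genes differed, with 13 at E11.5 only and 1 at E14.5 only. E14.5 only held 10 genes with a pseudocount of 2, 8 with edgeR on reads, 8 with edgeR on covered thymines and 11 with DESeq2, and edgeR on reads gave 1083 risen genes. Without E14.5 pools A and B, 13 genes differed, 22 changed within E14.5, 5 at E11.5 only and 0 at E14.5 only.

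Leaving out each pool in turn gave 702 to 960 risen and 1263 to 1685 fallen genes and 23 to 910 that differed between stages. Within E11.5 606 to 1744 genes changed, within E14.5 929 to 3355 and within E16.5 322 to 2536. At E11.5 only the range was 11 to 365, at E14.5 only 2 to 200 and at E16.5 only 8 to 37.

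Cad was at 0 with edgeR on covered thymines. Neurod2 changed sign, to 0.01 with TMM scaling and with edgeR on reads, 0.02 with edgeR on covered thymines and with DESeq2, and 0.01 without E11.5 pool B or E14.5 pool B, with a range of -0.03 to 0.01 over pools left out (0 without E16.5 pool A). Neither gene passed in any of these. The causes were not tested. No gene that passed over the 9 pairs passed in the opposite direction in any setting, which only rescaling or recounting reads could have shown. Low genes rest on few reads, so small changes at a few CPM were not detectable at this depth.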
